A study of Mus musculus with 32 samples.

Results

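The genes described here are 31 genes of platelets and of megakaryocytes, the marrow cells that shed them, measured in the whole blood of mice 24 h after X-rays. They were chosen by name as platelet and megakaryocyte genes, and every probe on the array that carries one of the names was read, 40 probes of 39429 in all. For 24 genes there was 1 probe and for 7 there were several. The genes comprise 8 secreted and granule proteins, 11 adhesion receptors and surface glycoproteins, 8 receptors for agonists and signalling proteins, and 4 enzymes, cytoskeletal and other proteins. Of the 31 genes, 30 passed the filter on dim probes and were tested among 15160 genes. The exception was Slc35d3, a nucleotide sugar transporter needed for platelet dense granules, which was well above background on 0 of 32 arrays.

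Platelets have no nucleus and carry RNA that their megakaryocyte packaged before release, so platelet transcripts in blood report both how many platelets there are and what each holds. They stick to a damaged vessel wall through the glycoprotein Ib-IX-V complex, glycoprotein VI and CLEC-2, answer ADP, thromboxane and thrombin through receptors coupled to G proteins, and bind fibrinogen through the integrin of Itga2b and Itgb3. Granules then release platelet factor 4, thrombospondin and von Willebrand factor. Megakaryocytes are made under GATA1, FLI1, RUNX1 and NF-E2, and ionising radiation is known to lower platelet counts days later, once the marrow precursors are lost.

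All 32 mice were male C57BL/6 and fell into 6 groups. Wild-type mice received 0 Gy (n = 6) or 8 Gy (n = 5), ATM-/- mice, which lack a kinase that signals DNA breaks, received 0 Gy (n = 5) or 4 Gy (n = 6), and Scid mice received 0 Gy (n = 5) or 3 Gy (n = 5). Scid is a mutation of the DNA-dependent protein kinase catalytic subunit that impairs the joining of DNA ends and leaves few mature B and T cells. The groups are called WT, Atm and Scid with their dose. The unirradiated mice were sham treated. Blood was taken by cardiac puncture, its globin transcripts were removed, and each mouse had 1 array. The dose differed by genotype, so a difference between irradiated groups of different genotype is also one between doses. The labels give no age, and p-values here measure the spread between single mice.

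Levels are log2 signals relative to the 75th percentile of the array, so 0 is that percentile and 1 unit is a doubling. At most 58.6% of probes were well above background on an array. The lowest shares were those of Atm 4 Gy replicate 6 and Scid 0 Gy replicate 5 (25.0%). The 3 probes for Atm and Prkdc, the gene mutated in Scid, were above background on 0 to 3 arrays and could not check the labels. Scid 0 Gy replicate 4 and WT 0 Gy replicate 3, on the same slide, stood apart from their groups in lymphocyte markers. The Scid mouse had B and T cell marker means of 1.13 and 2.21. The others of its group had -2.14 to -0.43 and 0.39 to 0.92. The wild-type mouse had -1.66 and 0.57, against -0.11 to 2.58 and 1.37 to 2.71 in the rest of its group. Whether these labels are right was not tested. In all, 7 arrays were counted as rich in liver transcripts, more than 3 log2 units above the median array over 10 hepatocyte markers. These 7 arrays were WT 0 Gy replicates 2 and 5, WT 8 Gy replicates 1 and 2, Atm 0 Gy replicate 2 and Atm 4 Gy replicates 3 and 5.

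Of the 30 tested genes, 25 were well above background on all 32 arrays. The other 5 were Ltbp1, a protein that binds latent TGF-beta, Selp, which encodes P-selectin, and the channel gene Trpc6, each on 31 arrays, F2rl2, which encodes the thrombin receptor PAR3, on 29, and Tbxa2r, the thromboxane A2 receptor, on 24. Tbxa2r was above background on 4 of 6 WT 0 Gy, 5 of 5 WT 8 Gy, 5 of 5 Atm 0 Gy, 5 of 6 Atm 4 Gy, 2 of 5 Scid 0 Gy and 3 of 5 Scid 3 Gy arrays. No probe of the 31 genes was saturated on any array.

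Pf4 (platelet factor 4) and Ppbp (pro-platelet basic protein) are granule chemokines from neighbouring genes. In build mm9 their 60-base probes lie at chr5:91202275-91202334 and chr5:91198970-91199029, 3.25 kb apart on the plus strand. Selp and F5 (coagulation factor V) are also near each other, with probes at chr1:166079660-166079719 and chr1:166150216-166150275. The Itga2b probe spans 209 bases of the genome (chr11:102319453-102319661) for its 60 bases, so it crosses an exon junction, as does that of Fermt3, an activator of integrins (chr19:7074257-7076292).

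The stretch of 250 bases before the annotated start is shown for the neighbours Pf4 and Ppbp, and for Gp1ba, Gp5 and F2rl2, the 3 genes in which a GATA and an ETS motif stood together. Sequences are from RefSeq, build GRCm38.p6, 5′ to 3′ on the strand of the gene, and are from another build than the probe positions. Capitals mark matches on either strand to a GATA motif spelled AGATAA or TGATAA, an ETS motif spelled AGGAAG or CGGAAG, an NF-E2 motif spelled TGAGTCA and a RUNX motif spelled TGTGGT or TGCGGT, none of which holds another. The windows are chr5:90772185-90772434, plus strand for Pf4, chr5:90768268-90768517, plus strand for Ppbp, chr11:70638872-70639121, plus strand for Gp1ba, chr16:30310782-30311031, minus strand for Gp5 and chr13:95696670-95696919, plus strand for F2rl2.
Pf4: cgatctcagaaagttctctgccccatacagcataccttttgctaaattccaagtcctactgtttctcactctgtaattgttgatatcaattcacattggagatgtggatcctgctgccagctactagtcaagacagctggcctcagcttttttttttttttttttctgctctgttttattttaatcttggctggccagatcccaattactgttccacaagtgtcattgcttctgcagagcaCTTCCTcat
Ppbp: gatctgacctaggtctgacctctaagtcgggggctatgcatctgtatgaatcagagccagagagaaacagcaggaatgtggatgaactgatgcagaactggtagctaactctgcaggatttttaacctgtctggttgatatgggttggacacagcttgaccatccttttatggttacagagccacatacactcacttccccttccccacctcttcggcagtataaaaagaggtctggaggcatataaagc
Gp1ba: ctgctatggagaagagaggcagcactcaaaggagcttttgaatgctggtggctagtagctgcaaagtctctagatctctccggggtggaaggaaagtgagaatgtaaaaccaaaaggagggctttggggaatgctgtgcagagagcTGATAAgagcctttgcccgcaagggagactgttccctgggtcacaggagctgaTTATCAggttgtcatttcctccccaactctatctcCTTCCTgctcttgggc
Gp5: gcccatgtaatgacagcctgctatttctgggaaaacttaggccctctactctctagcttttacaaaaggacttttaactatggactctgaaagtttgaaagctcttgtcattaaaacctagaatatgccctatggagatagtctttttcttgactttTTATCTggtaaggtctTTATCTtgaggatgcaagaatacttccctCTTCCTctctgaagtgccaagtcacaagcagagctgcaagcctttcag
F2rl2: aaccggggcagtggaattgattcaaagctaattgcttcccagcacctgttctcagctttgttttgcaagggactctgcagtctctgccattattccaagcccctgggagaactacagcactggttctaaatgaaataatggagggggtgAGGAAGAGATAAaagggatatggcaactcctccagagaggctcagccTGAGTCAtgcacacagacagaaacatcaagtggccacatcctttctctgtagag

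In Pf4 an ETS motif ends close to the start, and Ppbp holds none of the 4. F2rl2 holds an ETS and a GATA motif side by side, followed by NF-E2. Over the 29 windows of the 26 genes that could be matched, 8 held GATA (27.6%, against 16.6% of 32851 windows of all genes) and 15 held ETS (51.7%, against 39.2%). NF-E2 and RUNX each stood in 3 windows (10.3%), where all genes had 4.46% and 18.6%. The NF-E2 windows came from 2 genes, as the overlapping windows of Ctla2a shared 1 site. These are descriptions of short letter matches and were not tested. Thbs1, Vwf, Itgb3, Gng11 and Rgs18 were not matched.

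The level of these genes differed widely between mice of the same group. The mean over the 30 genes ran from 3.82 in WT 0 Gy replicate 5 to 7.05 in Scid 3 Gy replicate 2. By group that mean was 5.21 ± 0.91 (SD, n = 6) in WT 0 Gy and 5.53 ± 0.67 (SD, n = 5) in WT 8 Gy. It was 5.06 ± 0.22 (SD, n = 5) in Atm 0 Gy, 5.23 ± 0.93 (SD, n = 6) in Atm 4 Gy, 5.87 ± 0.68 (SD, n = 5) in Scid 0 Gy and 6.41 ± 0.47 (SD, n = 5) in Scid 3 Gy. Scid 3 Gy had the highest group mean for 28 of 30 genes. The share of all genes with their highest mean in that group is not given. The 30 genes varied together within groups (median pairwise r of 0.72). A count over them is therefore not a count of independent results. For all 30 genes the SD within groups exceeded the SD of the 6 group means. The highest array stood 6.98-fold above the lowest for Selp, the narrowest range, and 60.2-fold for F2rl2, the widest, with a median of 14.5-fold. In whole blood, fewer platelets and less RNA per platelet cannot be told apart.

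**Figure D1:**
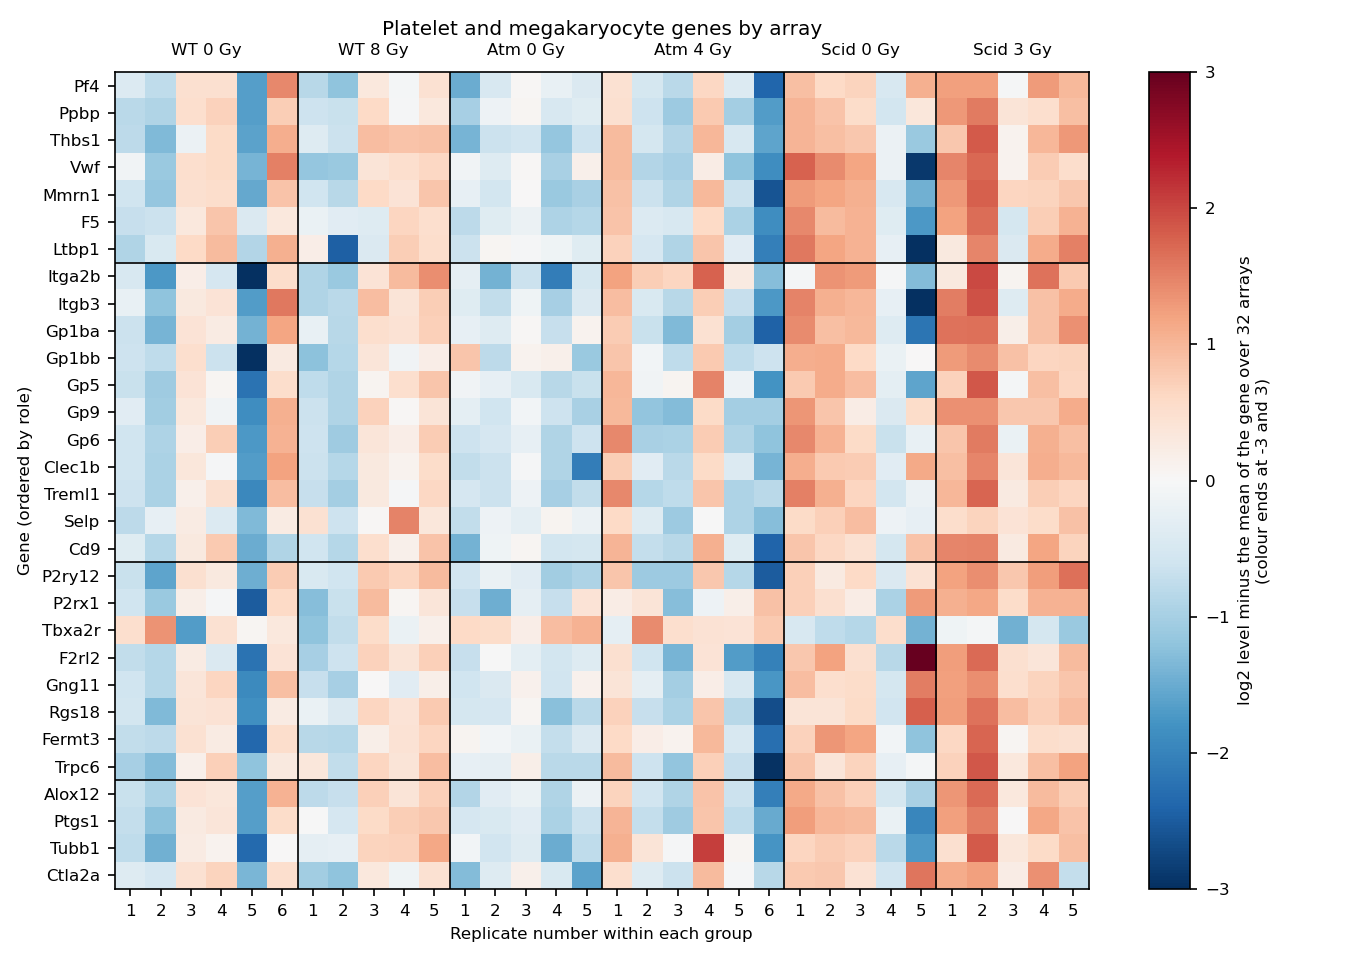
Level of each of the 30 tested genes (rows, ordered by role, black lines between roles) in each of the 32 arrays (columns, by group), as log2 difference from the mean of the gene over all arrays. Most columns have 1 colour from top to bottom, apart from Tbxa2r, which does not follow the rest. WT 0 Gy replicate 5 and Atm 4 Gy replicate 6 are low, Scid 3 Gy replicate 2 is high, and Scid 0 Gy replicate 5 is mixed.

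Pf4 shows the spread. Its levels were 8.55 at the lowest, 10.24 at the median and 11.66 at the highest in WT 0 Gy and 9.01, 9.39, 10.16, 10.53 and 10.68 in WT 8 Gy. In the Atm mice they were 8.72, 9.72, 9.78, 9.99 and 10.25 at 0 Gy and 7.84 at the lowest, 9.75 at the median and 10.83 at the highest at 4 Gy. In the Scid mice they were 9.73, 10.81, 10.88, 11.11 and 11.27 at 0 Gy and 10.17, 11.18, 11.44, 11.44 and 11.49 at 3 Gy. The groups overlapped, and the highest level of all 32 arrays was in an unirradiated wild-type mouse. Itga2b, which encodes the integrin alpha-IIb chain, ranged over 36.8-fold, Itgb3, its beta-3 partner, over 33.8-fold and Vwf over 25.4-fold. The genes of the von Willebrand factor receptor complex ranged over 9.40-fold for Gp9, 16.9-fold for Gp5, 17.0-fold for Gp1ba and 23.4-fold for Gp1bb.

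The genes varied together. After the mean of each group was removed, the median Pearson correlation over the 435 pairs of the 30 genes across 32 arrays was 0.72, and r was above 0.5 in 358 pairs (82.3%). Over the pairs of all 14900 genes with a value on every array the median was 0.03. The first axis of the 30 genes held 72.3% of their variance within groups and the second 12.1%. The median was 0.84 among the 7 secreted and granule proteins, 0.72 among the 11 adhesion receptors, 0.77 among the 4 enzymes and other proteins, and 0.63 among the 8 agonist receptors and signalling proteins. All points share the scaling of their array. The median was 0.62 after quantile normalization, 0.73 after scaling to spiked-in RNA, where all genes had 0.48, and 0.86 after another background correction.

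Some pairs were nearly parallel. Vwf and Itgb3 reached r = 0.98, Gp5 and Fermt3 0.98, Gp6, which encodes the collagen receptor glycoprotein VI, and Treml1, a granule membrane protein, 0.98, and Gp1ba and Ptgs1, which encodes cyclooxygenase-1, 0.97. The genes Itga2b and Itgb3 of the fibrinogen receptor reached 0.80. The chromosomal neighbours Pf4 and Ppbp reached 0.89 and Selp and F5 0.66. The lowest median correlation with the other genes was that of Tbxa2r (-0.08), then P2rx1, an ATP-gated channel (0.41), F2rl2 (0.53) and Ctla2a, a protease inhibitor (0.57).

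**Figure D2:**
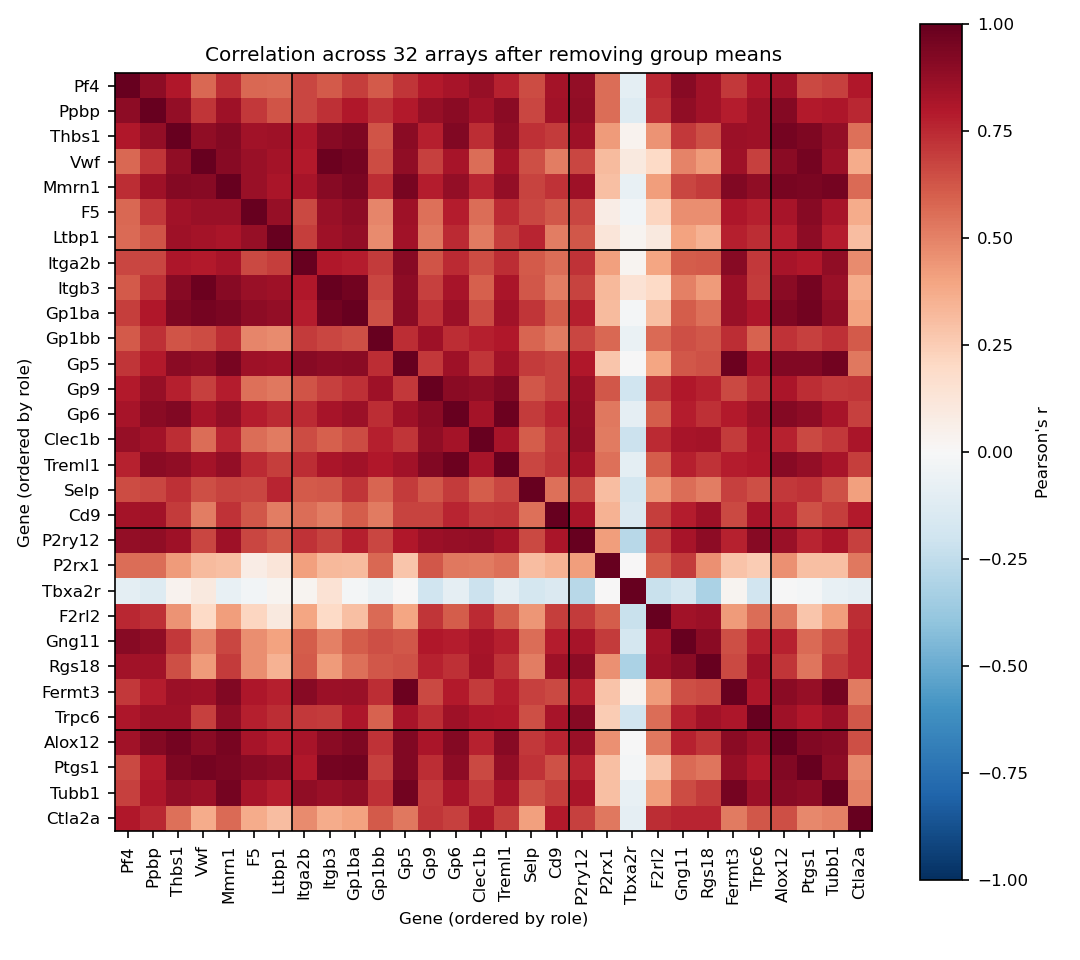
Pearson's r between each pair of the 30 tested genes across 32 arrays, after the mean of each group was removed; genes are ordered by role, with black lines between roles. Nearly all cells are positive, the row of Tbxa2r is near 0 or below, and P2rx1, F2rl2 and Ctla2a are paler against Vwf, F5, Ltbp1 and Itgb3.

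Set against Pf4, 28 of the other 29 genes had an adjusted p under 0.05 in a two-sided permutation test that exchanged Pf4 values within groups (100000 permutations, 39 relations, with Benjamini-Hochberg adjustment). The highest were Gng11, a G protein gamma subunit (r = 0.91, rho = 0.90), Ppbp (r = 0.89, rho = 0.88), P2ry12, the ADP receptor (r = 0.88, rho = 0.85), and Clec1b, which encodes CLEC-2 (r = 0.87, rho = 0.87), each with a permutation p of 1e-05, the smallest the permutations can give. The lowest of the 28 were Vwf (r = 0.57, rho = 0.67), Ltbp1 (r = 0.56, rho = 0.62) and P2rx1 (r = 0.56, rho = 0.60). P2rx1 ranked 1673 by r with Pf4 among the 14899 other genes with a value on every array. Many genes outside the list thus reached an r as high, and the share of all genes passing the test is not given. Tbxa2r had r = -0.10, rho = -0.05 (permutation p = 0.657 for r, adjusted 0.693). Without the 2 arrays farthest from the Pf4 median, at 7.84 and 8.55, the lowest of the 28 was 0.47. Within the 15 arrays scanned on the first day it was 0.17, that of Itga2b, and within the 12 of the second day 0.64, that of Selp. Tbxa2r had r = -0.70 on the first day and 0.51 on the second, so its value near 0 joins opposite signs. The days with 4 and 1 arrays were too small for a correlation.

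Other properties of the arrays moved with Pf4. The mean of 10 hepatocyte markers gave r = -0.50 and rho = -0.51 (permutation p = 0.0205 and 0.012, adjusted 0.0276 and 0.0156; r = -0.54 without the same 2 arrays, -0.33 on day 1 and -0.74 on day 2). The mean of 12 erythroid markers gave r = 0.45 and rho = 0.45 (permutation p = 0.0291 and 0.0232, adjusted 0.0378 and 0.0274; r = 0.58 without the same 2 arrays, 0.71 on day 1 and 0.89 on day 2). The mean of 9 B cell markers gave r = -0.45 and rho = -0.47 (permutation p = 0.0307 and 0.0189, adjusted 0.0386 and 0.023; r = -0.45 without the same 2 arrays, -0.69 on day 1 and -0.48 on day 2). The brightness of the array, which also enters the scaling, gave r = -0.39 and rho = -0.49 (permutation p = 0.0717 and 0.0106, adjusted 0.0874 and 0.0145; r = -0.62 without the same 2 arrays, -0.56 on day 1 and -0.85 on day 2). Pf4 tended to be lower on arrays with more liver or B cell transcript and higher on arrays with more red cell transcript. The means of heart muscle, neutrophil, monocyte and T cell markers had adjusted permutation p-values of 0.722, 0.682, 0.201 and 0.722 for r. On day 1 their r was 0.37, -0.09, -0.48 and -0.76, in the same order. On day 2 it was -0.13, 0.09, -0.07 and 0.83, so the T cell markers had opposite signs on the 2 days. Of the endothelial markers, which matter because endothelium also makes Vwf, Selp and Thbs1, 6 of 15 were kept, and defining genes such as Cdh5, Tie1 and Tek were not. The mean of the 6 had r = 0.11 with Pf4 (adjusted permutation p = 0.682). That r was 0.62 on day 1 and -0.33 on day 2. A relation with Pf4 cannot show how much endothelium adds to Vwf, Selp or Thbs1, and that was not tested. The part of these measures in the levels was not tested.

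A single array split the genes. In Scid 0 Gy replicate 5, 15 of 30 genes lay below all 4 other unirradiated Scid mice and 8 lay above all 4. Itgb3 was at 4.47 there and at 7.4 to 9.13 in the others, Vwf at 3.99 against 6.69 to 8.65, and Ltbp1 at -0.19 against 2.66 to 4.47. F2rl2 was at 3.54 against -1.0 to 1.04, Rgs18, a regulator of G protein signalling, at 7.93 against 5.56 to 6.71, and Gng11 at 12.25 against 10.2 to 11.64. This array had the lowest 75th percentile of all, 17.2 signal units. It held the lowest level of the 32 arrays for 4 genes and the highest for 5. Without it the median correlation among the 30 genes was 0.82, the second axis held 4.64% of the variance, and r with Pf4 was 0.85 for Vwf, 0.90 for Itgb3 and 0.82 for Ltbp1. P2rx1 stayed at 0.55. The share of all genes on this array that lay outside the 4 other unirradiated Scid mice is not given. The split therefore cannot be called particular to these genes.

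**Figure D3:**
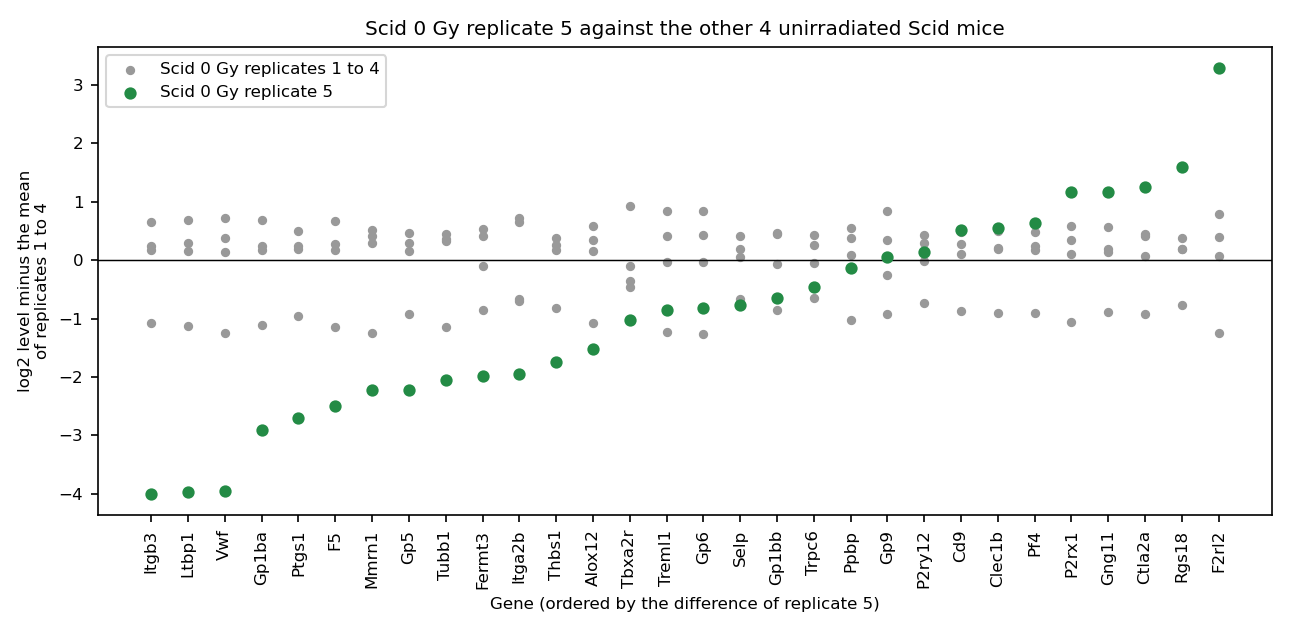
Level of each of the 30 tested genes in Scid 0 Gy replicate 5 (green) and in replicates 1 to 4 (grey), as log2 difference from the mean of replicates 1 to 4. From left to right replicate 5 goes from far below the others (Itgb3, Ltbp1, Vwf) to far above them (F2rl2).

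The first comparison asks how blood transcripts of each genotype change 24 h after X-rays, and none of the 30 genes passed the test in any of the 3 genotypes. In wild-type mice at 8 Gy, 24 of 30 differences were above 0 and their median was 0.33, where all 15160 genes had a median of -0.02. limma called 0 of the 30 at an adjusted p under 0.05, against 7.2% of all genes, and 0 of the 30 had an unadjusted p under 0.05, against 20.7% of all genes. For 0 of 30 genes were the 2 groups free of overlap, against 5.08% of all genes. Among the granule and secreted proteins Pf4 differed by -0.19 (SE 0.49, adjusted p = 0.853) and Ppbp by 0.15 (SE 0.44, adjusted p = 0.865), with intervals of -1.18 to 0.81 and -0.74 to 1.05. Vwf (-0.14) and Ltbp1 (-0.34) were below 0, and Thbs1, thrombospondin 1 (0.70), Mmrn1, multimerin 1 (0.31), and F5 (0.09) above. All 11 adhesion receptors were above 0, from 0.15 to 1.02.

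The 3 genes with the lowest p in wild type were Tubb1, Selp and Itga2b. Tubb1, the beta-1 tubulin of the platelet's marginal band, was at 0.87 at the lowest, 2.82 at the median and 3.46 at the highest in WT 0 Gy and at 2.93, 2.95, 3.87, 3.89 and 4.36 in WT 8 Gy, a difference of 1.1 (SE 0.54, adjusted p = 0.247). In 3 of 5 irradiated mice it exceeded every unirradiated one. Selp was at -0.06 at the lowest, 0.94 at the median and 1.51 at the highest in WT 0 Gy and at 0.63, 1.3, 1.6, 1.72 and 2.75 in WT 8 Gy, a difference of 0.72 (SE 0.36, adjusted p = 0.252). In 3 of 5 irradiated mice it exceeded every unirradiated one. Itga2b was at 1.74 at the lowest, 4.47 at the median and 5.48 at the highest in WT 0 Gy and at 3.86, 4.06, 5.38, 5.91 and 6.37 in WT 8 Gy, a difference of 1.02 (SE 0.61, adjusted p = 0.357), and 2 of 5 irradiated mice exceeded all unirradiated ones. Under other settings some of the 30 were called higher in wild type. The count was 5 after quantile normalization, where 1.39% of all genes were called higher, 3 with another background correction (2.61% of all genes) and 7 with array weights (7.52%). It was 21 with spike-in scaling (25.0%), which moved the median of all genes to 1.24. The median over the 30 was 0.03 without WT 0 Gy replicate 5, the array with the lowest levels, and 0.55 without WT 0 Gy replicate 6. Within scan days the median was -0.23 on day 1 (1 irradiated and 3 unirradiated mice) and 0.75 on day 2 (3 and 2).

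In Atm mice at 4 Gy, 19 of 30 differences were above 0, with a median of 0.08 against -0.15 for all genes. limma called 0 of 30, against 0.237% of all genes. A single gene, Itga2b, had an unadjusted p under 0.05, where 12.1% of all genes did, and no gene was free of overlap between the groups, as 2.12% of all genes were. Itga2b was at 2.9, 3.54, 4.32, 4.44 and 4.71 in Atm 0 Gy and at 3.68 at the lowest, 5.66 at the median and 6.73 at the highest in Atm 4 Gy, a difference of 1.54 (SE 0.61, adjusted p = 0.273). In 5 of 6 irradiated mice it exceeded every unirradiated one. Tubb1 was at 1.72, 2.43, 2.63, 2.82 and 3.11 in Atm 0 Gy and at 1.43 at the lowest, 3.42 at the median and 5.27 at the highest in Atm 4 Gy, a difference of 0.96 (SE 0.54, adjusted p = 0.515), again with 5 of 6 irradiated mice above all unirradiated ones. The mouse that was not was replicate 6 for both genes, the array with the lowest share of detected probes. Ctla2a differed by 0.64 (SE 0.46, adjusted p = 0.647). Itgb3, which encodes the partner chain of Itga2b, differed by 0.18 (SE 0.64, adjusted p = 0.959).

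Pf4 differed by 0.01 in the Atm mice and P2ry12 by -0.03, with intervals of -0.99 to 1.01 and -1.01 to 0.95. Gp1ba, the von Willebrand factor binding chain, was lowest at -0.46. The 8 agonist receptors and signalling proteins had a median of -0.07, with 2 above 0, P2rx1 (0.59) and Fermt3 (0.12). With array weights Itga2b was called. With spike-in scaling 20 of the 30 were called lower, as was most of the array (10792 genes, median -1.66), so the sign in Atm depends on the scaling. The median over the 30 ran from -0.13 without Atm 4 Gy replicate 4 to 0.41 without Atm 4 Gy replicate 6. Within days it was 1.28 on day 1 (1 irradiated and 4 unirradiated mice) and -1.22 on day 3 (1 and 1).

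In Scid mice at 3 Gy, 28 of 30 differences were above 0, with a median of 0.58 against 0.01 for all genes. limma called 0 of 30, against 1.06% of all genes, and 0 of 30 had an unadjusted p under 0.05, against 9.61%. P2ry12, the receptor that antiplatelet drugs of the clopidogrel class block, was at 4.24, 4.95, 5.1, 5.27 and 5.4 in Scid 0 Gy and at 5.49, 5.88, 5.92, 6.06 and 6.34 in Scid 3 Gy, a difference of 0.95 (SE 0.50, adjusted p = 0.572). It was the only one of the 30 whose groups did not overlap, as 2.68% of all genes did not. Gp1ba was at 2.14, 3.94, 5.22, 5.3 and 5.74 in Scid 0 Gy and at 4.5, 5.19, 5.7, 5.94 and 5.99 in Scid 3 Gy, a difference of 1.0 (SE 0.59, adjusted p = 0.627). Its low value at 0 Gy was that of replicate 5. Tubb1 differed by 0.91 (SE 0.57, adjusted p = 0.661). The 2 genes below 0 were F2rl2 (-0.13), which had its highest level of all arrays in Scid 0 Gy replicate 5, and Tbxa2r (-0.06). The median was 0.11 with array weights and 0.35 without Scid 0 Gy replicate 5. It ran from 0.34 without Scid 0 Gy replicate 4 to 0.74 without Scid 3 Gy replicate 3, and within days it was 0.79 on day 1 (2 irradiated and 4 unirradiated mice) and 0.71 on day 2 (2 and 1).

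**Figure D4:**
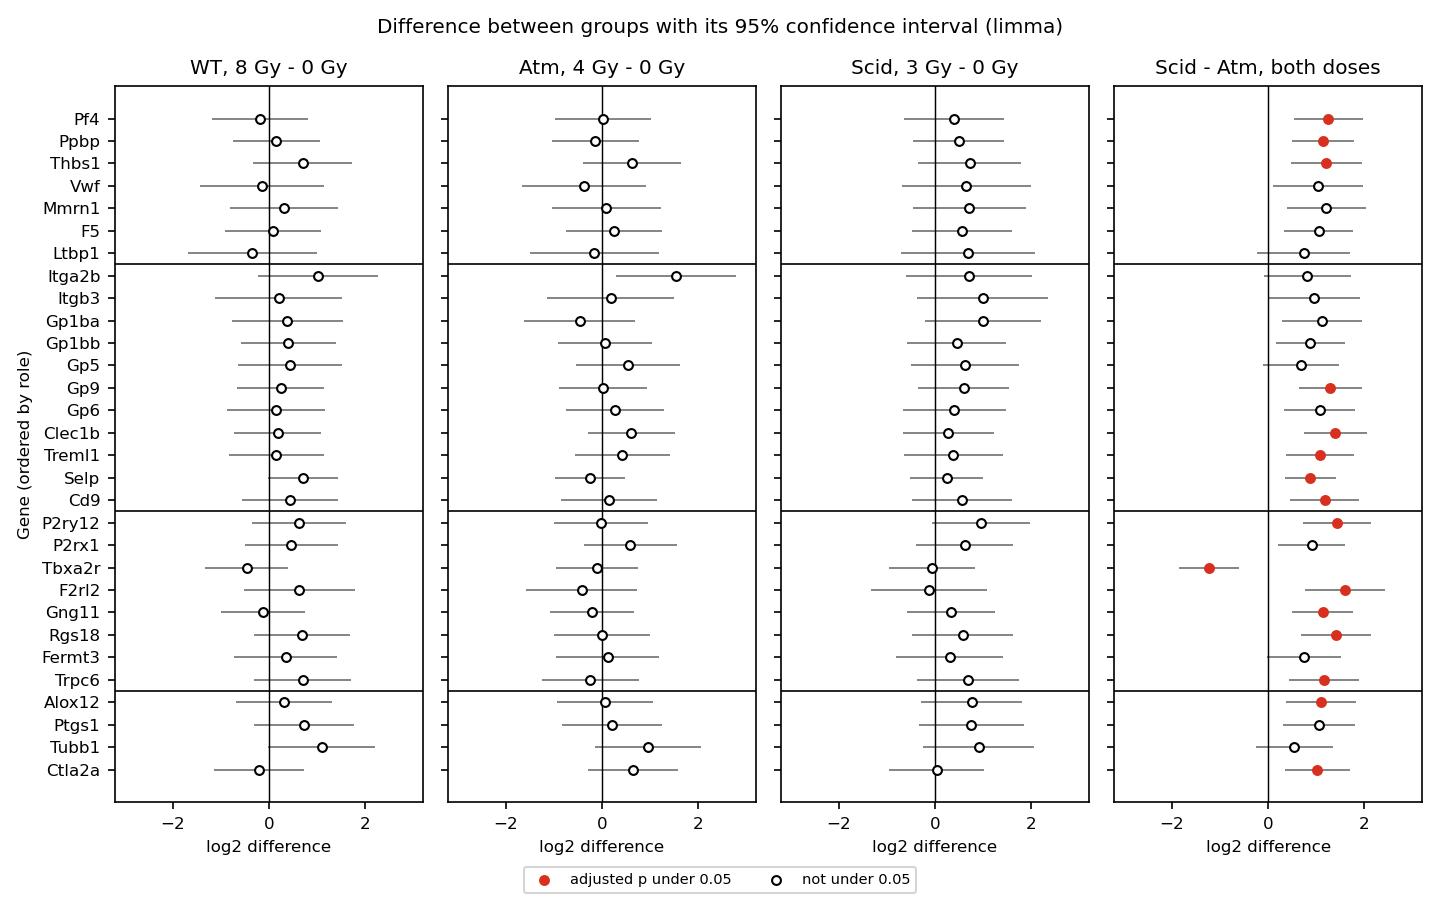
Log2 difference of each of the 30 tested genes (rows, ordered by role) between irradiated and unirradiated mice of each genotype and between Scid and Atm mice over both doses, with the 95% confidence interval from limma. Filled red points have an adjusted p under 0.05: 0 in the first 3 panels, and in the last 15 above 0 and Tbxa2r below.

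Without radiation, Atm and wild-type mice had a median difference of -0.17 over the 30 genes, against -0.01 for all genes, and the median was 0.03 without WT 0 Gy replicate 6 and -0.45 without WT 0 Gy replicate 5. limma called 0 of 30 and 0% of all genes, and 0 of 30 had an unadjusted p under 0.05, against 2.27% of all genes. The 3 lowest p-values were those of Clec1b (-0.59, SE 0.44, adjusted p = 1), Ctla2a (-0.61, SE 0.46, adjusted p = 1) and F5 (-0.58, SE 0.49, adjusted p = 1). Between unirradiated Scid and wild-type mice, which share these controls, 29 of 30 differences were above 0, with a median of 0.68 against 0.09 for all genes. limma again called 0 of 30 and 0% of all genes, while 4 of 30 had an unadjusted p under 0.05 against 3.3% of all genes. Without WT 0 Gy replicate 5 the median was 0.43. Without Scid 0 Gy replicate 5 it was 0.85 and 6 had an unadjusted p under 0.05. Without the 7 arrays rich in liver transcripts, of which 2 are WT 0 Gy and none is Scid, the median was 0.14. Scid 0 Gy arrays had a summed hepatocyte signal of 5.88 to 6.48 (log2), against 5.64 to 12.64 in WT 0 Gy. Their part in the difference was not tested.

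The 4 genes at an unadjusted p under 0.05 were F2rl2, Gp1bb, Clec1b and Selp. F2rl2 was at -2.37 at the lowest, -0.75 at the median and 0.25 at the highest in WT 0 Gy and at -1.0, 0.32, 0.64, 1.04 and 3.54 in Scid 0 Gy, a difference of 1.67 (SE 0.57, adjusted p = 0.899). Gp1bb, the beta chain of glycoprotein Ib, was at 1.99 at the lowest, 4.5 at the median and 5.62 at the highest in WT 0 Gy and at 4.93, 5.13, 5.72, 6.23 and 6.24 in Scid 0 Gy, a difference of 1.25 (SE 0.48, adjusted p = 0.899). The lowest wild-type value stood apart from the other 5. Clec1b differed by 0.97 (SE 0.44, adjusted p = 0.899) and Selp by 0.74 (SE 0.36, adjusted p = 0.899). The ranges of all 4 overlapped between the groups.

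Whether the response to X-rays differed from that of wild type was tested as the difference of differences, at unequal doses. For Atm minus WT the median over the 30 genes was -0.18 (0.18 without Atm 4 Gy replicate 6 and -0.42 when replicate 4 of that group was left out), limma called 0 of 30 and 0% of all genes, and 0 of 30 had an unadjusted p under 0.05, against 8.55%. For Scid minus WT the median was 0.23 (-0.03 without Scid 0 Gy replicate 4, 0.04 without Scid 0 Gy replicate 5 and 0.53 without WT 0 Gy replicate 5), with 0 of 30 and 0% of all genes called, and 0 of 30 at an unadjusted p under 0.05, against 7.14%. The lowest p-values belonged to Selp (-0.97, SE 0.51, adjusted p = 0.616), Trpc6 (-0.94, SE 0.70, adjusted p = 0.721) and F2rl2 (-1.05, SE 0.80, adjusted p = 0.725) for Atm, and to Ltbp1 (1.03, SE 0.95, adjusted p = 0.715), F2rl2 (-0.76, SE 0.82, adjusted p = 0.754) and Selp (-0.47, SE 0.52, adjusted p = 0.755) for Scid. The intervals were wide, -2.0 to 0.06 for Selp in Atm and -0.90 to 2.95 for Ltbp1 in Scid. With spike-in scaling all 30 were called lower in Atm minus WT, together with 13605 of all genes, whose median moved to -2.85.

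A further comparison, chosen after the levels had been seen, set the Scid mice of both doses against the Atm or WT mice of both doses, and so joins unequal doses. Against Atm, 29 of 30 genes were above 0 with a median of 1.08, where all genes had 0.17. limma called 15 higher and 1 lower, 16 of 30 against 9.15% of all genes, and 25 had an unadjusted p under 0.05 against 34.4%. Clec1b, whose product binds podoplanin, had the lowest p. It was at 6.01, 7.2, 7.36, 7.44 and 8.06 in Atm 0 Gy and 6.7 at the lowest, 7.72 at the median and 8.82 at the highest in Atm 4 Gy. In the Scid mice it was at 7.76, 8.85, 8.87, 9.17 and 9.22 at 0 Gy and 8.46, 9.0, 9.06, 9.19 and 9.55 at 3 Gy. It was higher by 1.4 (SE 0.32, adjusted p = 0.0115), and 8 of 10 Scid mice exceeded all 11 Atm mice. Gng11 was higher by 1.14 (SE 0.31, adjusted p = 0.0274), with 9 of 10 Scid mice above all Atm mice.

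By role, 3 of 7 secreted and granule proteins were called higher, Pf4 (1.25, SE 0.35, adjusted p = 0.0319), Ppbp (1.14, SE 0.32, adjusted p = 0.0301) and Thbs1 (1.21, SE 0.36, adjusted p = 0.0371). Of 11 adhesion receptors 5 were, namely Clec1b, Gp9 (1.3, SE 0.32, adjusted p = 0.0186), Selp (0.88, SE 0.26, adjusted p = 0.036), Cd9, a tetraspanin (1.17, SE 0.35, adjusted p = 0.0379), and Treml1 (1.08, SE 0.35, adjusted p = 0.0477). Of 8 agonist receptors and signalling proteins 5 were higher, P2ry12 (1.43, SE 0.35, adjusted p = 0.0162), Rgs18 (1.41, SE 0.36, adjusted p = 0.0201), F2rl2 (1.6, SE 0.41, adjusted p = 0.0215), Gng11 and Trpc6 (1.16, SE 0.36, adjusted p = 0.0417). Alox12, which encodes platelet 12-lipoxygenase (1.1, SE 0.36, adjusted p = 0.0478), and Ctla2a (1.02, SE 0.33, adjusted p = 0.0485) completed the 15. The 14 that were not called lay between 0.55 (Tubb1) and 1.21 (Mmrn1). As the genes varied together, the calls are not independent of each other. With levels taken relative to the mean of the 30 genes, only Tbxa2r was called. The number of calls ran from 0 with another background correction to 29 with array weights, and from 6 to 22 when single mice were left out. Without Scid 0 Gy replicate 5 it was 19 higher and 1 lower. Against WT, 29 of 30 were above 0 with a median of 0.79, but limma called 0 of 30 against 0.62% of all genes, with 16 at an unadjusted p under 0.05 against 38.2%. The lowest p-values were those of Gp1bb (1.28, SE 0.35, adjusted p = 0.0525), Gng11 (1.07, SE 0.31, adjusted p = 0.0595) and Clec1b (1.02, SE 0.32, adjusted p = 0.0616). The difference between the 2 comparisons was not tested.

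Most lymphocyte markers differed in the other direction in the same comparison, 8 of 9 for B cells and 7 of 10 for T cells. Of 9 B cell markers 5 were called lower in Scid than in Atm mice, with a median of -1.97. Of 10 T cell markers 3 were, with a median of -1.1. The summed T cell signal (log2) overlapped, at 5.84 to 7.36 in Scid 0 Gy and 6.14 to 6.66 in Scid 3 Gy. It was 6.26 to 6.79 in Atm 0 Gy and 5.69 to 7.05 in Atm 4 Gy. The summed B cell signal (log2) was 1.58 to 6.17 in Scid 0 Gy and 2.33 to 3.05 in Scid 3 Gy. It was 6.02 to 7.43 in Atm 0 Gy and 4.37 to 6.47 in Atm 4 Gy. Scid 0 Gy replicate 4 had a B cell marker mean of 1.13, against -2.14 to -0.43 in the other Scid 0 Gy mice. Without that mouse 21 of the 30 genes were called higher and 1 lower than in Atm mice. The brightness of the arrays also differed, and with it as a covariate 2 of the 30 were called, Clec1b and Tbxa2r. Within scan days the median over the 30 was 0.98 on day 1 (6 Scid and 5 Atm mice), 0.71 on day 2 (3 and 4) and 2.02 on day 3 (1 and 2). The part of lymphocytes and brightness in the difference was not tested.

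**Figure D5:**
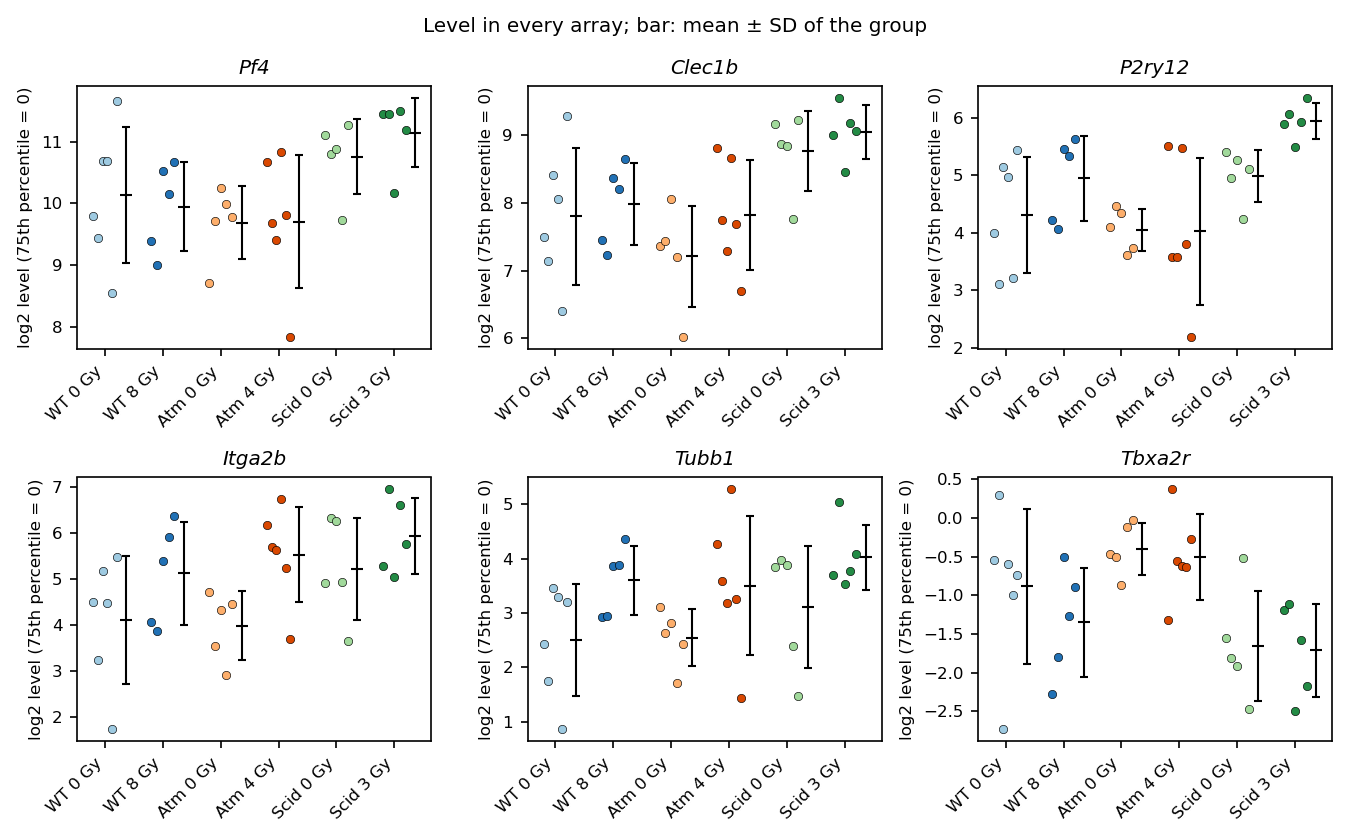
Log2 level (75th percentile of the array = 0) of 6 genes in each array, by group, with the mean and SD beside the points. Pf4, Clec1b and P2ry12 have their highest means in the Scid groups, Itga2b and Tubb1 have 5 of 6 irradiated Atm mice above the unirradiated ones, and Tbxa2r has its lowest means in the Scid groups. Irradiated and unirradiated mice of a genotype overlap except for P2ry12 in Scid mice.

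Tbxa2r differed from the others in correlation and direction. Its probe lies at chr10:80797520-80797579, and its signal was near the limit of detection. It was at -2.73 at the lowest, -0.66 at the median and 0.30 at the highest in WT 0 Gy and at -2.27, -1.8, -1.26, -0.90 and -0.51 in WT 8 Gy. It was at -0.86, -0.50, -0.47, -0.12 and -0.02 in Atm 0 Gy and at -1.32 at the lowest, -0.59 at the median and 0.37 at the highest in Atm 4 Gy. In Scid mice it was at -2.47, -1.91, -1.81, -1.55 and -0.52 at 0 Gy and -2.5, -2.17, -1.58, -1.19 and -1.11 at 3 Gy. It was lower in Scid than in Atm mice by a log2 difference of -1.23 (SE 0.30, adjusted p = 0.0173). Leaving single arrays out aside, this call held under 13 of 15 other settings that gave a value. It was absent with another background correction, which matters for a signal this dim, and with spike-in scaling. The gene passed the filter on dim probes through the WT and Atm groups only, where its level was higher. In Scid it was above background on 2 of 5 arrays at 0 Gy and 3 of 5 at 3 Gy. Other blood and vessel cells also carry the thromboxane receptor, and which cells gave this signal was not tested.

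For the 7 genes with several probes, the probe of highest signal stood for the gene. The 3 Clec1b probes were above background on all arrays and had r = 0.87, 0.94 and 0.83 with Pf4. The second Alox12 probe had r = 0.81, that of Itgb3 0.69 and that of F5 0.49. Gp1bb had a second probe with r = 0.77 and a further one that was above background on 3 arrays. The probes of Ltbp1 disagreed, at r = 0.56 and 0.10, the second being above background on 21 arrays. The second probes of Itgb3 and Gp1bb differed from the first in the Atm comparison, at 1.74 against 0.18 for Itgb3 and 1.43 against 0.06 for Gp1bb (differences of group means, log2, not tested). They were above background on 27 and 29 arrays. The second Mmrn1 probe was above background on 1 array. Ctla2a has a close paralogue, Ctla2b, whose r with Pf4 was 0.94, and probes may not tell the 2 apart.

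Further genes of the pathway were read from 2 lists. Of 16 tested genes of megakaryocyte transcription and growth, 0 were called higher and 1 lower in wild type after 8 Gy, against 7.2% of all genes called in either direction, with a median of 0.38. The gene called was Bcl2l1, which encodes the survival factor BCL-XL and is also abundant in red cell precursors, at -2.58 (SE 0.47, adjusted p = 0.000341). None was called in Atm or Scid mice after irradiation (unadjusted p under 0.05 for 1 and 2 of 16, against 12.1 and 9.61% of all genes). Gata1 differed by 0.32 (SE 0.46, adjusted p = 0.722) and Fli1 by 0.66 (SE 0.42, adjusted p = 0.396) in wild type. Between Scid and Atm mice over both doses Gfi1b and Nfe2, both transcription factors of megakaryocytes and red cells, were called higher, Gfi1b at 1.08 (SE 0.32, adjusted p = 0.0365) and Nfe2 at 0.99 (SE 0.30, adjusted p = 0.0409), 2 of 16 where 9.15% of all genes were called.

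Of 52 tested further platelet genes, 1 was called higher and 1 lower in wild type, against 7.2% of all genes called, with a median of 0.33 over the list. Gas6, a ligand of the TAM receptors, was called higher at 3.03 (SE 0.88, adjusted p = 0.0281). Cd36, a thrombospondin receptor that red cell precursors and monocytes also express, was called lower at -2.89 (SE 0.47, adjusted p = 6.51e-05). Cd36 was also called lower in Scid mice at -2.3 (SE 0.49, adjusted p = 0.0143), and it differed by -1.29 (SE 0.47, adjusted p = 0.207) in Atm mice, where 0 of 52 were called and 5 had an unadjusted p under 0.05, against 12.1% of all genes. Erythroid markers moved with it, with 9 of 12 called lower in wild type (median -2.94), 1 in Atm (-1.25) and 4 in Scid mice (-1.47). Their part in the change of Cd36 and Bcl2l1 was not tested. Between Scid and Atm mice 4 of 52 were called higher, Clu, Myl9, Pla2g4a and Prkg1, against 9.15% of all genes called. The median of the 52 was 0.65, and that of all genes 0.17. The mean of the megakaryocyte list correlated with Pf4 at r = 0.77 and that of the further platelet list at r = 0.77 within groups.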

How the data were processed

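Whole-blood RNA of 32 mice was hybridised to 1-colour Agilent arrays, 1 array per mouse. The deposited scanner files hold spot intensities that the authors extracted and background-corrected with Agilent Feature Extraction (version 12.0.2 per the submitters' processing notes, 11.5.1.1 per the file headers). The authors' deposited series matrix holds log2 values, which equal the log2 of the processed signal plus a constant for each array to within 0.01 for 98.6 to 99.7% of probes (constants -0.95 to 1.61, column medians 5.51 to 6.44). It was used as an alternative, and what set its constants is not given in the sources used here.

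Control spots and outlier spots were left out, the spots of a probe were averaged, and log2 of the processed intensity minus the 75th percentile of the array was taken. The filter on dim probes required the scanner's detection call on 4 or more arrays in any 1 group and left 18368 of 39429 probes, and the remaining probe of highest mean stood for its gene (15160 genes). The 31 genes carry the same name in the files and in RefSeq, and 27508 probes were named by accession through RefSeq. All 6 groups entered 1 fit with limma 3.58.1 (R 4.3.3), with empirical Bayes variances and Benjamini-Hochberg adjustment over all genes, and an adjusted p under 0.05 was a call. The script was tested on simulated data. Correlations used deviations from group means. The number of arrays limits the precision.

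Every gene of the list is accounted for. In each comparison all called genes are named, or else the 3 with the lowest p. The genes, the lists and the comparisons were chosen with earlier results of these data known. The alternatives were 5 scalings or background corrections, the series matrix, 2 filters, blocks for scan day, slide and replicate number, array weights, leaving out liver-rich arrays, averaging probes, and leaving out each array. Chosen after seeing the data were array brightness as a covariate, setting arrays to the mean of the 30 genes, the comparisons of Scid mice over both doses, and leaving arrays out of the correlation. Arrays fell on 4 scan days and 9 slides.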

Additional observations from a re-analysis of the deposited data

Results flagged for a closer look

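Of 186 sets, each the values of 1 gene or of the mean over the 30 genes in 1 group, 4 had a mouse that stood apart from the rest of its group, and chance alone marks about 1 in 20 such sets. In Scid 3 Gy, replicate 3 was lowest for both Pf4, at 10.17 with the next mouse at 11.18, and P2rx1, at 6.128 with the next at 6.62. In WT 0 Gy, replicate 5 was lowest for Gp1bb at 1.988, with the next at 4.37. In Scid 0 Gy, replicate 4 was lowest for Clec1b at 7.761, with the next at 8.85. Values are log2 levels.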

How the results depend on the processing

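Counts here are numbers of the 30 genes with an adjusted p under 0.05 by limma. The 7 planned comparisons had 0 by the reported processing, and leaving out any 1 array kept 0 to 0. After irradiation of wild-type mice the count was 3 with normexp background correction, 5 with quantile normalization, 2 with the percentile of probes detected on all arrays, 21 with spike-in scaling, 2 with the series matrix values, 7 with array weights and 1 with brightness as a covariate, all higher. In Atm mice it was 20 lower with spike-in scaling and 1 higher, Itga2b, with array weights. For the response of Atm minus WT it was 30 lower with spike-in scaling. That scaling moved the median of all genes to 1.24 in wild type and -1.66 in Atm, and of the 30 genes to 1.59 and -1.42. The cause of the other moves was not tested.

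For Scid against WT over both doses, the count of 0 became 2 with the percentile of probes detected on all arrays, 1 (Tbxa2r, lower) with spike-in scaling, 10 with no filter on dim probes (9 of the 30, and Slc35d3, which then entered the test), 2 with scan day as a block, 14 with array weights and 1 (Tbxa2r, lower) relative to the mean of the 30 genes. It ran from 0 to 12 when single arrays were left out, with 12 without Scid 0 Gy replicate 4, 10 without replicate 6 of the unirradiated wild-type mice, and 6 without replicate 3 of these or replicate 3 of WT 8 Gy. For Scid against Atm the count of 16 became 0 with normexp background correction, 7 with quantile normalization and 9 with the series matrix values. It was 3 with no filter on dim probes, 6 with slide as a block and 29 with array weights. Without the liver-rich arrays it was 5, and with brightness as a covariate 2. It was 1 (Tbxa2r, lower) with the array median and also relative to the mean of the 30 genes, with 0 called higher in both. It ran from 6 to 22 when single arrays were left out. It was 6 without Scid 0 Gy replicate 1 or Scid 3 Gy replicate 1, 7 without Atm 0 Gy replicate 1, 2 or 4, Scid 0 Gy replicate 2 or Atm 4 Gy replicate 3, 8 without Scid 3 Gy replicate 2, and 9 without Scid 0 Gy replicate 3 or Atm 4 Gy replicate 2.

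Replicate numbers did not pair the mice: in 25 pairs of groups and numbers the correlation of deviations ran from -0.73 to 0.45 and passed 0.1 in 10. With them as a replicate block the 7 planned comparisons stayed at 0, Scid against WT over both doses came to 6 and Scid against Atm to 20. The median correlation among the 30 genes lay between 0.62 and 0.86 over the alternatives and between 0.69 and 0.82 with single arrays left out. Signals near background limit Tbxa2r and F2rl2, which were well above it on 24 and 29 of 32 arrays. Selp, Trpc6 and Ltbp1 were well above background on 31 arrays each, and Slc35d3 on 0.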

Other observations

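Of the 14899 other genes with a value on every array, the named ones closest to Pf4 within groups were Ctla2b (r = 0.94), Rgs10, a regulator of G protein signalling (r = 0.92), Gng11 (r = 0.91), Mcur1, a regulator of mitochondrial calcium uptake (r = 0.91), BC031181 (r = 0.90) and B2m, the light chain of class I histocompatibility molecules (r = 0.89). Of the 30 genes, Gng11 and Ppbp were among the 20 closest, and 15 were among the 500 closest. Nfe2 ranked 22. The likeness was measured over 32 arrays with the group means removed, and it was not tested.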
